A study of Homo sapiens with 6 samples.

Results

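The genes described here are 10 feedback inhibitors of the mitogen-activated protein kinases (MAP kinases), taken by symbol from the 26485 genes listed for THP1 cells. They are the dual specificity phosphatases DUSP1, DUSP2, DUSP4, DUSP5, DUSP6, DUSP8, DUSP10 and DUSP16, together with SPRY2 and SPRED1. THP1 is a human acute monocytic leukemia cell line, obtained from the ATCC, that carries an activating NRAS mutation. Cells were kept for 6 h with withaferin A (WFA), a steroidal lactone from Withania somnifera, or with DMSO, the solvent that served as control. RNA from 3 independent experiments gave 3 libraries per group. The sample labels state 1 mM WFA, whereas the study, where it describes these data, states 1 μM, which is the dose taken here.

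MAP kinases are switched on when a kinase phosphorylates a threonine and a tyrosine in their activation loop, and dual specificity phosphatases remove both phosphates. ERK is the MAP kinase below RAS, RAF and MEK, while JNK and p38 answer mainly to stress and cytokines. Many of these phosphatases are themselves transcribed when MAP kinases fire, so their transcripts form a negative feedback loop. Sprouty and SPRED proteins act higher up, where they restrain the passage of the signal from receptors through RAS to RAF. In monocytes these loops limit the cytokine response to bacterial products.

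DUSP1 lies at chr5:172768090-172771195, DUSP16 at chr12:12474210-12562383, DUSP5 at chr10:110497838-110511544 and DUSP6 at chr12:89347232-89353271 in GENCODE 29 on GRCh38, the build that the labels call hg38. RefSeq promoter windows on GRCh38.p14, each from 250 bases before to 50 bases after a transcript start, were searched for 8 of the 10 members, 11 windows in all. DUSP4 and DUSP5 were not among these 8. The windows of 3 genes are shown. DUSP1 rose with WFA and its window held motif matches, DUSP16 rose and its window held none, and the window of DUSP8 held 2 matches although its transcript was at the floor. All 3 are on the minus strand, at chr5:172771146-172771445, chr12:12562814-12563113 and chr11:1572222-1572521, and are written 5′ to 3′ with motif matches in capitals.
DUSP1: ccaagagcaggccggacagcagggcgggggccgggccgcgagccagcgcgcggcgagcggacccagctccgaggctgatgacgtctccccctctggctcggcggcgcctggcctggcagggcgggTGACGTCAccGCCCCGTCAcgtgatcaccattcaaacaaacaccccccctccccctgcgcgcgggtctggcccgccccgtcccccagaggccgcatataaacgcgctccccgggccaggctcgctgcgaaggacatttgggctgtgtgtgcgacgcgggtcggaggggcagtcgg
DUSP16: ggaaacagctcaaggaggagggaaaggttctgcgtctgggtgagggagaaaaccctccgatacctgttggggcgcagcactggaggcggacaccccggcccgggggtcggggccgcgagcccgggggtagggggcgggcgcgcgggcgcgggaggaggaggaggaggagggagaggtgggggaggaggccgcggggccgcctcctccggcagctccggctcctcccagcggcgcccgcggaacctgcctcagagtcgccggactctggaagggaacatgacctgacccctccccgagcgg
DUSP8: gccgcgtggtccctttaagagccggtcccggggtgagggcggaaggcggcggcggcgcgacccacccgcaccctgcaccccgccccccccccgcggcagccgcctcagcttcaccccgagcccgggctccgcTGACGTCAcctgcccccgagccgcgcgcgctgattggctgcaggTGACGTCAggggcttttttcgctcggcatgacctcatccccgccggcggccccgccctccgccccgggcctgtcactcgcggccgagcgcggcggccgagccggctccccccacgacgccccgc
A total of 6 motifs were searched on both strands. In the window of DUSP1, TGACGTCA, the full cyclic AMP response element, started 125 bases before the transcript start, and GCCCCGTCA, a match to TGACNNNGC on the other strand, started 115 bases before it. The window of DUSP8 held TGACGTCA at 118 and at 74 bases before the start. TGACGTCA occurs in 1.85% and TGACNNNGC, the core of the antioxidant response element, in 13.3% of the 35116 RefSeq windows of this length. TGACNNNGC also matched once in the second window of DUSP10. The heat shock elements TTCNNGAA and GAANNTTC (7.74% and 6.77% of all windows), the AP-1 site TGANTCA (7.71%) and the ATF4 and C/EBP element TGATGNAA (3.62%) had no match in these 11 windows. The 11 windows include none of DUSP4 or DUSP5. Motif matches are letters in a window and not measured binding.

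The libraries held between 11006035 and 13872810 counts, and 9 of the 10 members passed the filter on low counts. Values are given as CPM, counts per 1000000 after TMM scaling, and differences were tested with edgeR (quasi-likelihood, p-values adjusted by Benjamini-Hochberg) over the 12854 genes tested. Fewer cells that use a gene and less RNA per cell cannot be told apart in such bulk libraries. All 10 monocytic and myeloid markers on a list (CD14, CD33, LYZ, ITGAM, CSF1R, FCGR1A, SPI1, CD68, MPO and CD4) were detected, with a summed level between 2546 and 3086 CPM with DMSO and between 2331 and 3116 CPM with WFA. Of these markers, CD68 was higher and 4, CD14 and CD33 among them, were lower with WFA. Of 9 genes listed as markers of other cell types, 5 had 3 counts or fewer in every library. HBB was among them at 0, which says only that no read was assigned to it. The summed level of the 9 was between 357 and 403 CPM with DMSO and between 319 and 337 CPM with WFA, nearly all of it PECAM1. Monocytes also express PECAM1, so this sum is no measure of other cell types. PECAM1 was called lower, and COL1A1, a collagen gene on that list, went from 3 to 10 counts per library with DMSO to between 106 and 135 with WFA. The part of these markers in the results below was not tested.

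Exposure to WFA raised 4 of the 9 tested inhibitors, DUSP4, DUSP16, DUSP1 and DUSP5, and lowered 1, DUSP6, by the edgeR test at a threshold of 0.05 on the adjusted p-value. Among all genes tested 25.8% were higher and 24.7% were lower by the same test, so calls in both directions were common in these libraries. DUSP10, DUSP2, SPRY2 and SPRED1 did not pass the threshold, and DUSP8 was not tested. The 4 genes that rose had no overlap between the groups, with every WFA library above, as did 29.6% of all genes, and DUSP6 had every WFA library below, as did 28.5% of all genes. With the replicate number as a block, DUSP10 also passed the threshold as a higher gene and SPRED1 as a lower gene, which made 5 higher and 2 lower. The median log2 fold change of the 9 members was 0.29, against 0.02 over all genes tested.

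**Figure D1:**
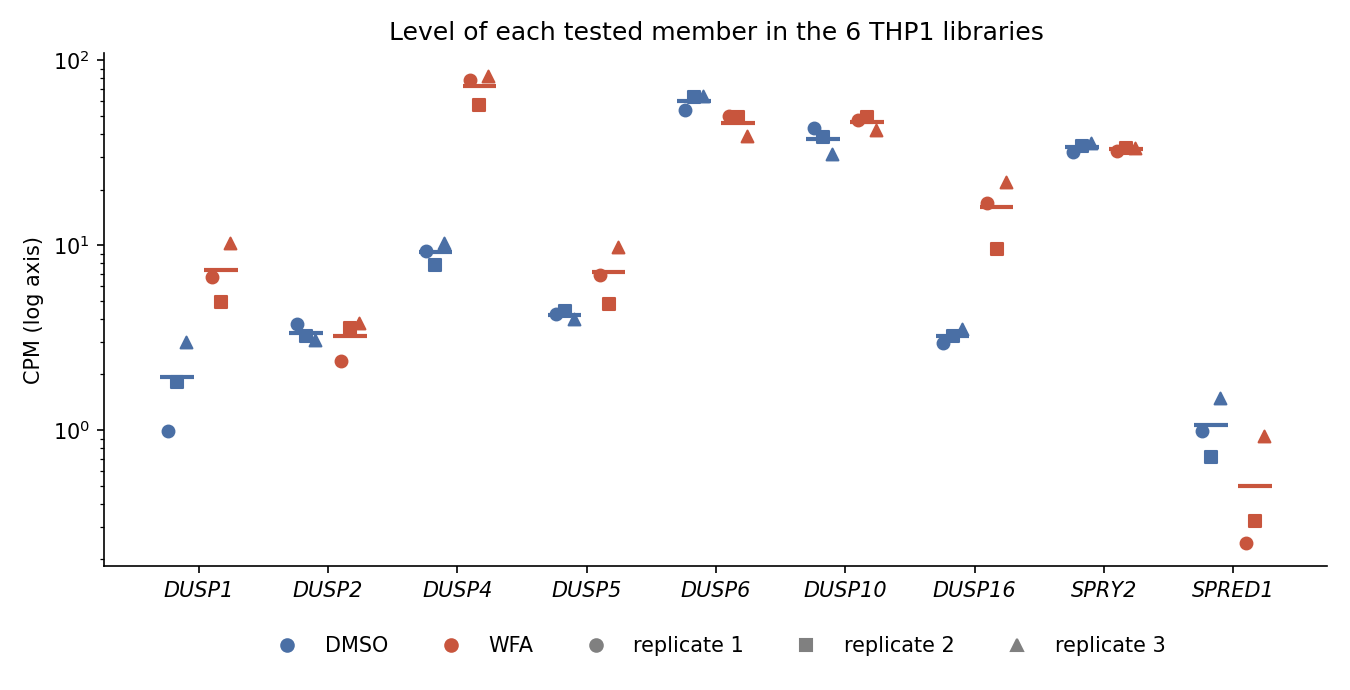
CPM of the 9 tested members (log axis) in the 3 DMSO and 3 WFA libraries, with a line at each group mean and marker shapes for replicate numbers. DUSP4 rose from between 7.82 and 10.2 CPM to between 57.6 and 81.9 CPM, whereas SPRY2 kept within 32.01 and 35.7 CPM in all 6 libraries.

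Among the phosphatases of the nucleus, DUSP4 moved most. It is an inducible enzyme that acts on ERK and also on JNK, and its transcript stood at 9.36, 7.82 and 10.2 CPM in DMSO replicates 1, 2 and 3 and at 77.8, 57.6 and 81.9 CPM in the WFA replicates. The groups were far apart, with the lowest WFA library above every DMSO library several times over. The means were 9.14 ± 1.23 CPM and 72.4 ± 13.0 CPM (SD, n = 3 each), a difference of 2.98 on the log2 scale or 7.91-fold (adjusted p = 1.02e-09 by edgeR, standard error 0.15). The 3 pairs of same-numbered libraries gave log2 differences of 3.03, 2.86 and 2.98. This change was larger than that of 99.4% of the genes tested.

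DUSP1, an early response phosphatase of p38 and JNK that dampens cytokine production in monocytes, rested on few reads. It had 14, 23 and 36 counts with DMSO and 82, 61 and 111 with WFA, which are 0.985, 1.82 and 2.999 CPM against 6.70, 4.91 and 10.3 CPM. The DMSO libraries differed among themselves, and yet none reached the lowest WFA library. The log2 fold change was 1.93 or 3.81-fold (adjusted p = 0.000245 by edgeR, standard error 0.34). The pairs gave log2 differences of 2.58, 1.36 and 1.73.

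DUSP5, which is specific for ERK, changed less. Its 4.22, 4.42 and 3.999 CPM with DMSO became 6.86, 4.83 and 9.77 CPM with WFA. The DMSO libraries lay close together and the WFA libraries spread widely, with replicate 2 just above the DMSO range and replicate 3 well clear of it. The log2 fold change was 0.75 or 1.68-fold (adjusted p = 0.0148 by edgeR, standard error 0.23). Without WFA replicate 3 it was 0.47 and did not pass the threshold (adjusted p = 0.104 by edgeR). GENCODE lists the processed pseudogenes DUSP5P1 and DUSP5P2, and how reads shared with them were assigned is not given in the sources used here.
DUSP2, a phosphatase of ERK and p38 found mostly in hematopoietic cells, had 3.73, 3.24 and 3.08 CPM with DMSO and 2.37, 3.54 and 3.82 CPM with WFA. The groups overlapped. Its log2 fold change was -0.06 with a 95% interval from -0.56 to 0.45 (adjusted p = 0.861 by edgeR), which leaves room for a change in either direction.

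DUSP6 is the cytoplasmic phosphatase that holds ERK outside the nucleus and is widely read as a marker of ERK activity. It was the only member called lower in the main edgeR fit, with all libraries, the filter on low counts and no block. It had 53.7, 63.1 and 64.2 CPM with DMSO and 49.9, 49.05 and 38.8 CPM with WFA. The ranges did not overlap, though WFA replicate 1 came close to DMSO replicate 1. The log2 fold change was -0.39 (adjusted p = 0.00937 by edgeR, standard error 0.11), and the pairs gave -0.10, -0.36 and -0.72. An antisense gene of GENCODE, AC024909.2, overlaps 39.4% of the exon bases of DUSP6. The TruSeq RNA v2 kit does not mark strand, so reads within the shared bases cannot be told apart.
DUSP4 and DUSP6 therefore moved in opposite directions within the same libraries. The ratio of DUSP4 counts to DUSP6 counts, which no scaling of the libraries can alter, was 0.174, 0.124 and 0.160 with DMSO and 1.56, 1.17 and 2.11 with WFA. DUSP4 had fewer counts than DUSP6 in each DMSO library and more in each WFA library.

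**Figure D2:**
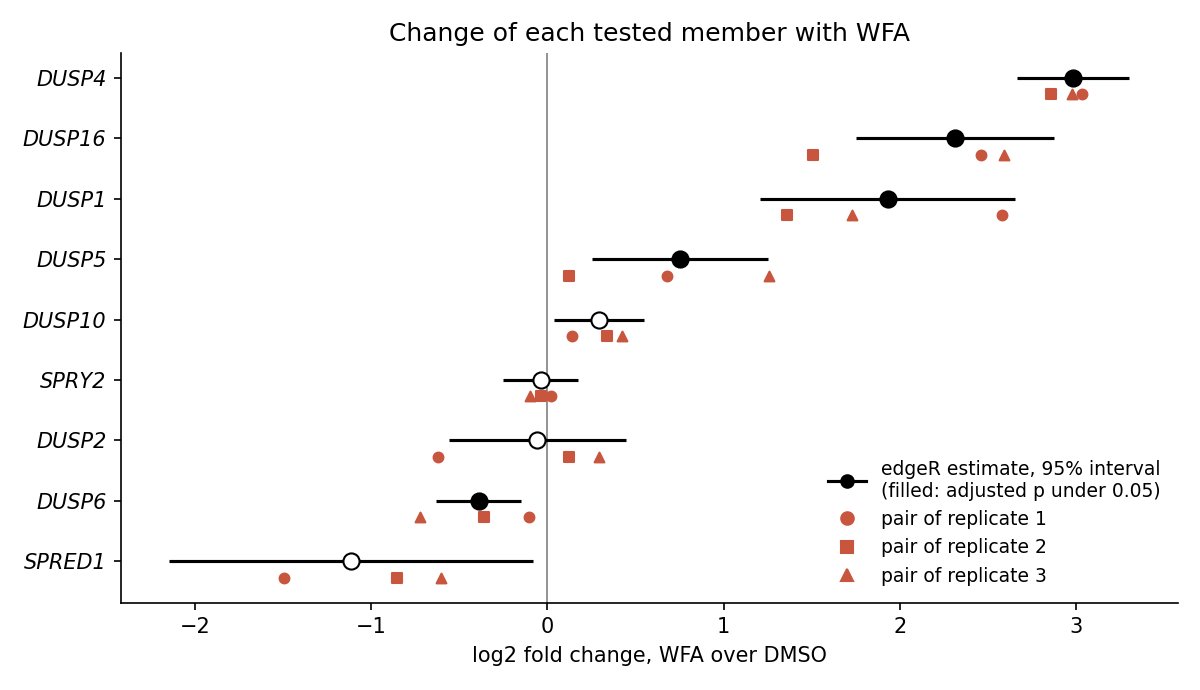
Log2 fold change (WFA over DMSO) of the 9 tested members, with the edgeR estimate and its 95% interval in black (filled where the adjusted p-value was under 0.05) and the log2 CPM difference of each same-numbered pair in red. DUSP4, DUSP16, DUSP1 and DUSP5 lie to the right of 0 in all 3 pairs and DUSP6 to the left, while the pairs of DUSP2 and of SPRY2 fall on both sides.

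Of the phosphatases that act chiefly on JNK and p38, DUSP16 passed the threshold, DUSP10 did not and DUSP8 was not tested. DUSP16, which shuttles between nucleus and cytoplasm and prefers JNK, had 2.95, 3.24 and 3.50 CPM with DMSO and 17.0, 9.504 and 21.9 CPM with WFA. Its groups were well separated, with WFA replicate 2 lowest. The log2 fold change was 2.31 or 4.97-fold (adjusted p = 4.01e-06 by edgeR, standard error 0.26), and the pairs gave 2.46, 1.51 and 2.59.
DUSP10, which acts on the same kinases, started from a higher level, with 43.0, 38.7 and 31.2 CPM with DMSO and 47.5, 49.05 and 42.0 CPM with WFA. The lowest WFA library fell below the highest DMSO library, although each pair was higher with WFA (log2 differences of 0.14, 0.34 and 0.42). The log2 fold change was 0.29 with a 95% interval from 0.04 to 0.55 (adjusted p = 0.0526 by edgeR), and the replicate block gave 0.30 (adjusted p = 0.00462 by edgeR). Without DMSO replicate 1 it was 0.40 (adjusted p = 0.023 by edgeR), and leaving out WFA replicate 3 gave 0.36 (adjusted p = 0.0354 by edgeR), each past the threshold. It was 0.18 when DMSO replicate 3 was left out (adjusted p = 0.232 by edgeR), and it missed the threshold without each of the other 3 libraries as well. With all libraries DUSP10 also passed with no filter (adjusted p = 0.0387 by edgeR), a minimum count of 30 (0.0468) and the robust fit (0.0495). It did not pass with the other scalings (adjusted p from 0.051 to 0.148 by edgeR) or with DESeq2 (adjusted p = 0.0911 by its Wald test). The ratio of DUSP10 to DUSP16 counts was 14.5, 12.0 and 8.93 with DMSO and 2.79, 5.16 and 1.92 with WFA.
DUSP8, the remaining phosphatase of this class, had 1, 0 and 0 counts with DMSO and 0, 2 and 0 with WFA. Both groups were under the floor of 3 counts per library, and no fold is given. GENCODE lists 3 processed pseudogenes of DUSP8.

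The Sprouty and SPRED members differed in level and in precision. SPRY2, an inhibitor of receptor tyrosine kinase signaling that ERK itself induces, had 32.01, 34.6 and 35.7 CPM with DMSO and 32.5, 33.7 and 33.4 CPM with WFA. All WFA libraries lay inside the DMSO range. Its log2 fold change was -0.04 with a 95% interval from -0.25 to 0.17 (adjusted p = 0.779 by edgeR).
SPRED1, which brings neurofibromin to the membrane to switch RAS off, was near the limit of detection. It had 14, 9 and 18 counts with DMSO and 3, 4 and 10 with WFA, and WFA replicate 3 lay within the DMSO range. The log2 fold change was -1.12 (adjusted p = 0.0675 by edgeR, standard error 0.48), and the pairs gave -1.50, -0.85 and -0.61. The replicate block gave the same log2 fold change of -1.12 and passed the threshold (adjusted p = 0.0167 by edgeR). The fit without WFA replicate 3 gave -1.86 (adjusted p = 0.0124 by edgeR) and the fit without DMSO replicate 2 gave -1.34 (adjusted p = 0.0436 by edgeR). Smaller differences that missed the threshold came from leaving out WFA replicate 1 (-0.79, adjusted p = 0.234 by edgeR), DMSO replicate 3 (-0.81, adjusted p = 0.246) or WFA replicate 2 (-0.88, adjusted p = 0.193). With 3 libraries against 3, the smallest two-sided p of an exact permutation test is 0.1. Each of the 5 called members had it, as any gene without overlap between the groups must.

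To set the members beside one another, CPM was divided by the length of the merged exons in GENCODE 29. With DMSO the order was led by DUSP10 at 14.1 ± 2.22, DUSP6 at 13.3 ± 1.27 and SPRY2 at 11.2 ± 0.630 CPM per kilobase (SD, n = 3 each). DUSP10 and DUSP6 overlapped, whereas SPRY2 lay just under the lowest DUSP6 value. Far below them came DUSP2 at 1.98, DUSP5 at 1.65, DUSP4 at 1.26, DUSP1 at 0.958, DUSP16 at 0.615 and SPRED1 at 0.137 CPM per kilobase. The libraries of DUSP4, DUSP1 and DUSP16 overlapped from one to the next in this order.
With WFA, DUSP10 led at 17.2 ± 1.39 CPM per kilobase (SD, n = 3), above every other member. SPRY2 at 10.9 ± 0.210, DUSP6 at 10.1 ± 1.36 and DUSP4 at 9.98 ± 1.79 followed with overlapping values (SD, n = 3 each). DUSP1 at 3.62, DUSP16 at 3.07, DUSP5 at 2.80 and DUSP2 at 1.92 CPM per kilobase also overlapped from one to the next. The place of DUSP4 depends on the length, since its longest single transcript (5537 bases, against 7257 for merged exons) would place it next after DUSP10 with WFA and level with DUSP5 with DMSO.
Summed over the members, the level per length was between 44.7 and 46.1 CPM per kilobase in the DMSO libraries and between 56.5 and 62.0 in the WFA libraries. The share of DUSP4 in that sum was 2.79% ± 0.417 with DMSO and 16.6% ± 2.25 with WFA (SD, n = 3 each). The share of DUSP6 went from 29.4% ± 2.68 to 17.0% ± 2.83 and that of SPRY2 from 24.9% ± 1.39 to 18.3% ± 1.16 (SD, n = 3 each). Because the sum rose, a share can shrink while the gene keeps its level. SPRY2 itself was at 11.2 CPM per kilobase with DMSO and 10.9 with WFA. The annotation on which the reads were counted is not given in the sources used here, so these lengths may differ from those of the counted features.

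**Figure D3:**
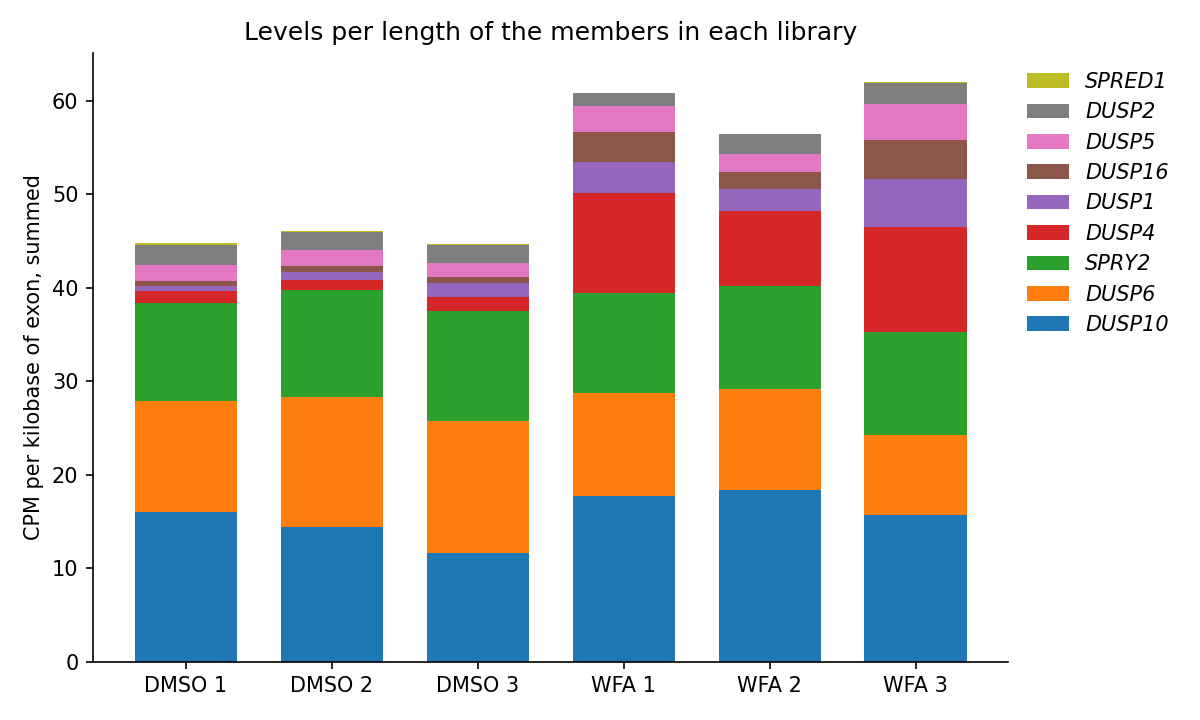
CPM per kilobase of merged exons in each of the 6 libraries, stacked by member, with DUSP8 left out because it was at the floor. The stacks reach between 44.7 and 46.1 with DMSO and between 56.5 and 62.0 with WFA, and the DUSP4 layer is the one that widens most.

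Relatives of the members moved in both directions. Over all genes tested 25.8% were higher and 24.7% were lower. Of the other MAP kinase phosphatases, DUSP9, a cytoplasmic enzyme of ERK like DUSP6, fell from 5.14 ± 0.569 to 2.33 ± 0.332 CPM (SD, n = 3 each), or -1.15 on the log2 scale (adjusted p = 0.000497 by edgeR). DUSP7, the third of that cytoplasmic class, had a log2 fold change of -0.22 that did not pass the threshold (adjusted p = 0.0948 by edgeR), though it did with the replicate block (2 genes lower), with total counts (2) and without WFA replicate 2 (2). Of 12 atypical dual specificity phosphatases 10 were tested, with 3 higher, 2 lower and a median log2 fold change of -0.04. DUSP3, a small nuclear phosphatase of ERK and JNK, rose from 197 ± 1.86 to 284 ± 26.8 CPM (SD, n = 3 each), and DUSP18 rose with a log2 fold change of 0.67. STYX, a catalytically inactive relative that binds ERK, fell with a log2 fold change of -0.48, and DUSP23 with -0.65.

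The other inhibitors of receptor and RAS signaling were also called in both directions, beside 25.8% higher and 24.7% lower over all genes tested. Of 18 genes 14 were tested, with 5 higher, 4 lower and a median log2 fold change of 0.06. DOK2, an adaptor that draws RAS GTPase-activating protein to receptors in myeloid cells, rose from 80.4 ± 13.8 to 327 ± 24.04 CPM (SD, n = 3 each), or 2.02 on the log2 scale (adjusted p = 4.4e-09 by edgeR). LRIG1, which promotes the degradation of growth factor receptors, rose with a log2 fold change of 1.55 (adjusted p = 1.1e-08 by edgeR). PTPN6, the tyrosine phosphatase of hematopoietic receptors, fell with a log2 fold change of -0.65, and RASA3, a RAS GTPase-activating protein, with -0.46. SPRED2 rose from 72.9 ± 3.72 to 111 ± 6.06 CPM (SD, n = 3 each), or 0.61 on the log2 scale (adjusted p = 2.9e-05 by edgeR). SPRY4 had a log2 fold change of 0.00056 (adjusted p = 0.998 by edgeR), and SPRY1, SPRY3 and SPRED3 did not pass the filter on low counts.

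The components of the kinase cascades held genes called in both directions, as did all genes tested, with 25.8% higher and 24.7% lower. In the RAS, RAF, MEK and ERK cascade 27 of 28 genes were tested, with 13 higher, 4 lower and a median log2 fold change of 0.14. With total counts in place of TMM, 7 of them were lower. MKNK2, a kinase that ERK and p38 activate and that phosphorylates eIF4E, rose from 80.3 ± 6.80 to 303 ± 31.3 CPM (SD, n = 3 each), or 1.91 on the log2 scale (adjusted p = 1.93e-09 by edgeR). SOS1, the exchange factor that loads RAS with GTP, rose with a log2 fold change of 0.81, while GRB2, the adaptor that brings it to receptors, fell with -0.83 (adjusted p = 2.75e-06 by edgeR). RPS6KA3, a kinase below ERK, fell with a log2 fold change of -0.39. HRAS is listed at 0 in every library, which says only that no read was assigned to it.
In the JNK and p38 cascades 23 of 24 genes were tested, with 4 higher, 6 lower and a median log2 fold change of 0.05. Without DMSO replicate 1, and likewise without WFA replicate 3, 2 were higher, as with total counts. MAP3K3 and MAP3K11, kinases at the top of these cascades, rose with log2 fold changes of 0.96 and 0.52. MAP3K5, the stress kinase that thioredoxin restrains, fell from 50.8 ± 2.28 to 26.1 ± 1.77 CPM (SD, n = 3 each), or -0.96 on the log2 scale (adjusted p = 1.82e-06 by edgeR). MAP2K6, which activates p38, fell with a log2 fold change of -1.31.

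Transcripts that ERK signaling is known to induce did not share 1 direction. Beside them and the receptors below, the shares over all genes tested were 25.8% higher and 24.7% lower. Of 22 such genes 19 were tested, with 11 higher, 4 lower and a median log2 fold change of 0.45. A minimum count of 30 left 7 higher, because FOSB, EGR2, EPHA2 and NR4A1 were then not tested. ZFP36, which speeds the decay of cytokine mRNA, rose from 99.4 ± 5.23 to 193 ± 29.4 CPM (SD, n = 3 each), or 0.95 on the log2 scale (adjusted p = 3.38e-06 by edgeR), and PLAUR, the urokinase receptor, rose with 0.91. CCND1, the cyclin of early G1 phase, fell from 23.0 ± 0.421 to 13.2 ± 1.51 CPM (SD, n = 3 each), or -0.80 on the log2 scale (adjusted p = 9.22e-05 by edgeR). EGR1, an immediate early transcription factor, fell with a log2 fold change of -0.85 (adjusted p = 0.000104 by edgeR).
Of 14 receptors upstream of MAP kinases 11 were tested, with 3 higher, 5 lower and a median log2 fold change of -0.04. TLR2, a receptor for bacterial lipoproteins, fell from 149.98 ± 11.99 to 46.5 ± 4.55 CPM (SD, n = 3 each), or -1.69 on the log2 scale (adjusted p = 4.4e-09 by edgeR), and KIT, the stem cell factor receptor, fell with -3.11. CSF2RB, the shared chain of cytokine receptors, and FGFR1 each rose with a log2 fold change of 0.46.

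**Figure D4:**
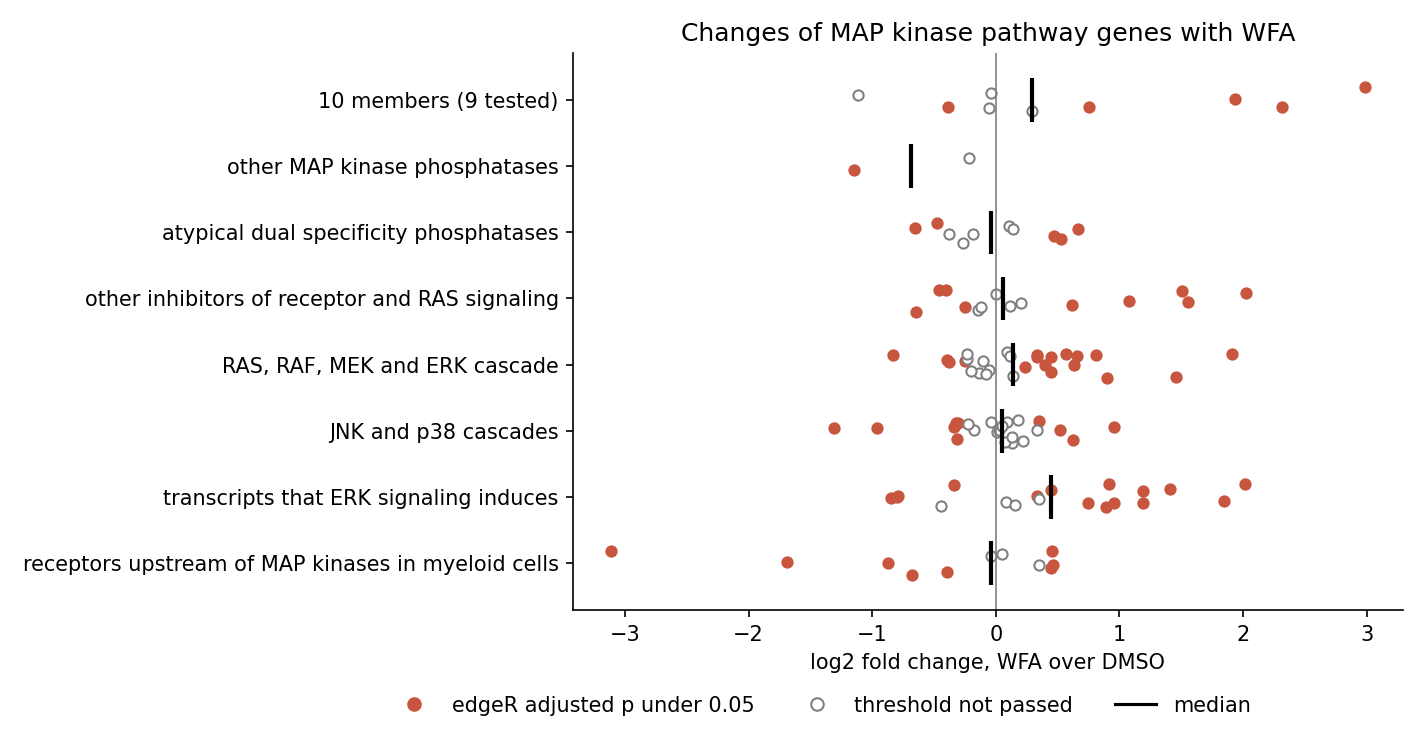
Log2 fold change (WFA over DMSO) of each tested gene, by list, with genes at an edgeR adjusted p-value under 0.05 in red, other genes open, and a black line at the median. The members span from -1.12 for SPRED1 to 2.98 for DUSP4, and the medians of the lists lie between -0.68 and 0.45.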

How the data were processed

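THP1 RNA was sequenced from 3 DMSO and 3 WFA libraries made with the TruSeq RNA v2 kit. The authors deposited whole-number counts per gene symbol, without normalization, and a score per library that rescales those counts by size factors and rounds them. The score, and the columns holding the authors' own comparison, were not used. The submitters' processing notes name bcl2fastq 2.19, Trimmomatic, Bowtie2, Picard, featureCounts, DESeq2 and hg38, with no settings. The members and lists were chosen with earlier results of these data known.

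Counts were analysed with edgeR 4.0.16 in R 4.3.3, using TMM, a filterByExpr minimum count of 10, and quasi-likelihood tests, adjusted over 12854 genes at a threshold of 0.05. Pair differences are of log2 CPM with a prior count of 2. Named genes are all members, up to 2 genes per direction with the smallest p-value on each list, and 3 genes nearest in profile to the most significant member in each direction. SPRY1, SPRY3, SPRY4, SPRED2, SPRED3, DUSP7, HRAS, FOSB, EGR2, EPHA2, NR4A1 and markers other than CD68, CD14, CD33, COL1A1 and PECAM1 were named after their values were seen. Some genes on the marker list are not reported here. Alternatives were the replicate block, DESeq2 1.42.0, other scalings and filters, a robust fit and leaving out each library. Their use on the pathway lists was added after seeing the data. The main fit, the block and DESeq2 were also run on simulated independent libraries in which few genes changed. That setting holds no shared replicate effect, so it cannot check the block for these data.

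Same-numbered libraries share a date-like code in the labels, which do not say what it marks. They deviated together from their group means (correlations across genes of 0.22, 0.33 and 0.25). Libraries of a group differed beyond sampling noise (chi-square per gene from 5.98 to 11.1), so none was a duplicate. Precision depends on the spread between libraries of a group and on total counts of 11006035 to 13872810 per library. The floor of 3 counts covers counting error only. Lengths and overlaps came from GENCODE 29 and promoter windows from RefSeq.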

Additional observations from a re-analysis of the deposited data

How the results depend on the processing

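Over the 9 tested members, 125 values were recomputed under the alternatives, of which 112 kept their direction and their side of the threshold, 10 passed it newly, 1 lost it and 2 changed sign. DUSP4, DUSP16, DUSP1 and DUSP6 kept both under each of them, with log2 fold changes from 2.87 to 3.13, from 2.04 to 2.59, from 1.59 to 2.38 and from -0.48 to -0.28. The value lost was that of DUSP5 without WFA replicate 3. The 2 sign changes were those of DUSP2, at 0.03 without DMSO replicate 1 and 0.13 without WFA replicate 1, within a range from -0.18 to 0.13 over the libraries left out and never past the threshold. The 10 new calls were of DUSP10 and SPRED1. Over the alternatives the adjusted p-value of DUSP10 ran from 0.00462 to 0.232, that of SPRED1 from 0.0124 to 0.246 and that of DUSP5 from 0.00019 to 0.104. The number of members lower was 2 with the replicate block and with no filter, and from 1 to 2 with each library left out, while the number higher was then from 4 to 5. The block left 2 residual degrees of freedom against 4 and an infinite prior, made 3877 genes higher and 3708 lower, and changed no call of a member other than DUSP10 and SPRED1. SPRED1 had no value with a minimum count of 30. Over all genes, leaving out a library gave from 2942 to 3176 higher and from 2815 to 3016 lower, and total counts gave 2763 and 3875. The 25 genes named by rule on the pathway lists, markers left out, kept direction and call in all 350 values, and 188 of 196 list counts stayed within 1.5 times. Low counts limit DUSP8 and SPRED1. Causes of these shifts were not tested.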

Other observations

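The genes nearest to DUSP4 in profile, by the distance between mean-centred log2 CPM values over the 6 libraries, were SWT1 (distance 0.37), CAP2 (0.37) and ZFAND2A (0.41). ZFAND2A, an arsenite-inducible gene whose product binds the proteasome, went from 10.6 ± 0.669 to 90.4 ± 18.6 CPM (SD, n = 3 each). CAP2, which binds actin, went from 2.76 ± 0.398 to 22.3 ± 1.05 CPM, and SWT1, an endoribonuclease of the nucleus, from 2.54 ± 0.501 to 19.7 ± 4.26 CPM (SD, n = 3 each). Nearest to DUSP6 were NAT9 (distance 0.14), PANX1 (0.14), a channel protein, and U2SURP (0.14), a splicing factor, with log2 fold changes of -0.46, -0.49 and -0.44.

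Among the WFA libraries, replicate 2 had the lowest CPM for each of the 4 members that rose. The same library was lowest for 1639 of the 3311 genes that rose, or 49.5%, against 31.2% for replicate 1 and 19.3% for replicate 3.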
